A study of Mus musculus with 15 samples.

Results

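Microglia derived from mouse embryonic stem cells were given lipopolysaccharide (LPS, part of the outer membrane of Gram-negative bacteria) together with interferon gamma (IFNg, a cytokine of T cells and natural killer cells), and their RNA was compared with that of untreated cells. The comparison used 9 of the 15 RNA-seq libraries of the series, chosen by their numbers in the deposited table: 3 LPS+IFNg libraries (902, 903 and 904, called replicates 1, 2 and 3 below) and 6 untreated libraries (893 to 898, replicates 1 to 6). It covered all 11201 genes of that table, of which 11138 passed a filter on low values and were tested. The LPS+IFNg cells received 500 ng/ml LPS and 20 ng/ml IFNg for 24 h. The untreated cells received neither. Both groups were ESdM, the name the labels give to microglia made from C57BL/6-ATCC embryonic stem cells, grown in N2 medium. The other 6 libraries, from ESdM given interleukin 4 (IL4, 100 U/ml) or transforming growth factor beta (TGFb, 50 ng/ml) for 24 h, with 3 libraries each, entered the same fit. Whether a group's libraries stem from different cultures is not stated in the labels. The p-values therefore rest on variation among these libraries alone, part or all of which may be technical. RNA was taken from whole cultures, so fewer cells of a type and less RNA per cell cannot be told apart.

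LPS binds the receptor complex of CD14, MD-2 and TLR4, which signals through MyD88 and TRIF to NF-kB, the MAP kinases and the interferon regulatory factors. IFNg binds a receptor of its own, which activates the Janus kinases JAK1 and JAK2 and, through them, transcription factors of the STAT family. STAT dimers bind GAS elements in promoters, and the ISGF3 complex, which includes STAT2 and IRF9, binds ISRE elements. Macrophages and microglia exposed to both signals make nitric oxide, inflammatory cytokines and proteins of antigen presentation and of defence against microbes inside cells, which is known as classical activation.

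LPS+IFNg replicate 3 stood apart from replicates 1 and 2. The chi-square of recovered reads per degree of freedom, which covers counting noise only, was 26.36 and 27.01 for the pairs with replicate 3, and 2.9 for replicates 1 and 2. Replicate 3 differed at least 2-fold from the mean of the other two in 399 genes, 212 higher and 187 lower. The depths of the 3 LPS+IFNg libraries were 7589049 to 10170627 recovered reads, and those of the untreated libraries 2682564 to 18676181. Many results that change with the removal of replicate 3 are given with and without it. Smaller shifts in counts, fold changes, ratios and bounds are not all shown.

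Levels below are normalized read counts, written as normalized reads, in which 1 is the lowest value the table holds. The 3 values of a gene in LPS+IFNg are replicates 1, 2 and 3 in that order, and the 6 untreated values are given as the lowest, the highest and the median. A log2 fold change is the LPS+IFNg mean less the untreated mean of log2(value + 1), which makes changes of low-valued genes look smaller than they are, with its standard error (SE) where it is given. Levels are not divided by transcript length and are compared only within a gene. A number given after "rose by", "fell by" or a gene name in brackets is that log2 fold change. A gene is called higher or lower, or is said to have risen or fallen, where its Benjamini-Hochberg adjusted p from limma over all 11138 genes was below 0.05.

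The labelled cell type was checked against 14 measured markers of microglia and macrophages. The list looked for held 18 symbols, of which Adgre1 and Emr1 name the same gene. General markers of the lineage were present: the colony-stimulating factor receptor gene Csf1r had 3123, 3155 and 1581 normalized reads in the LPS+IFNg libraries, against 2626 to 2959 (median 2787) in the untreated libraries. Cd68 had 7314, 7288 and 9038 normalized reads in the LPS+IFNg libraries, against 7447 to 8395 (median 7811) in the untreated libraries. Neither Csf1r nor Cd68 was called. For Csf1r replicates 1 and 2 lay above and replicate 3 below all untreated libraries, and for Cd68 the reverse held. Cx3cr1 and Tmem119, which mark resident microglia, were at or near the floor. Cx3cr1 had 1, 1 and 7.9 normalized reads in the LPS+IFNg libraries, against 1 to 5.66 (median 1.28) in the untreated libraries. Tmem119 had 1, 3.44 and 1.13 normalized reads in the LPS+IFNg libraries, against 3.77 to 11.2 (median 7.77) in the untreated libraries. P2ry12 and Sall1, which also mark resident microglia, were on the list looked for, and no values are given for them. Of the panel, 4 genes were called higher and 5 lower, beside 29.5% and 29.4% of all tested genes, so the count is not read as a trait of the panel. Aif1, which encodes the microglial marker IBA1, had 193, 208 and 256 normalized reads in the LPS+IFNg libraries, against 17.2 to 34 (median 23.2) in the untreated libraries. The F4/80 gene, listed under its older symbol Emr1, had 6951, 6336 and 7515 normalized reads in the LPS+IFNg libraries, against 2814 to 3132 (median 3011) in the untreated libraries. The groups did not overlap for either gene. Without replicate 3 the panel gave 5 higher and 7 lower genes, beside 27.4% and 27.9% of all tested genes. Itgam, Fcgr3 and Csf1r, not called with all libraries, then passed the test at log2 fold changes of -0.16, -0.45 and 0.17. Of 12 T cell markers 2 were in the table, and their summed level was 167 to 234 in LPS+IFNg libraries against 53.2 to 89.9 in untreated ones. Lck, a Src-family kinase gene that was called higher (1.72), made up most of that sum, and Bcl11b was not called (-0.04). Also called higher, at low levels, were the B cell marker Pax5 (29.4, 32.7 and 40.7 normalized reads in LPS+IFNg, against 8.41 to 27.3 in untreated libraries), the neutrophil marker S100a8 (26.3, 17.2 and 10.2, against 5.52 to 9.43) and the astrocyte marker Aldh1l1 (51.9, 75.7 and 68.9, against 19.6 to 38.3), each 1 of the 1 or 2 tested members of its list. Of the dendritic cell markers, Itgax fell by 0.35 and Zbtb46 was not called, and no tested oligodendrocyte, endothelial or embryonic stem cell marker was called. No NK cell, neuron or fibroblast marker was in the table. Of 29 symbols on the homeostatic microglia list, 18 were in the table. These 18 genes summed to 10580.0 to 11490.0 normalized reads in LPS+IFNg libraries against 12770.0 to 13410.0 in untreated ones. The part of other cells in the results was not tested.

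The promoters of 6 of the genes that rose are shown because they hold the elements that STAT factors, interferon regulatory factors and NF-kB bind. They are the members with the largest fold change, in each of 3 lists (interferon-inducible GTPases, class I antigen presentation, NF-kB subunits and inhibitors), whose promoter held a match. Each is the 250 bases before the start of the first transcript that RefSeq lists for the gene, in GRCm38.p6, 5′ to 3′ on the gene's strand. Capitals mark every match, on either strand, to GAS (TTCNNNGAA), ISRE (GAAA, any 2 bases, GAAA) or the kB element of NF-kB in its degenerate consensus. GAS reads the same on both strands, and matches to different elements may share bases.
Gbp5 (chr3:142496684-142496933, + strand): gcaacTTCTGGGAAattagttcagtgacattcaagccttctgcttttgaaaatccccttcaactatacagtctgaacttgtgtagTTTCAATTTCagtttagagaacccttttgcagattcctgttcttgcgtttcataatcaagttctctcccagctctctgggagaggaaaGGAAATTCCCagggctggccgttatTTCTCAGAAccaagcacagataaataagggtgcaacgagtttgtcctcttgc
Gbp2 (chr3:142620413-142620662, + strand): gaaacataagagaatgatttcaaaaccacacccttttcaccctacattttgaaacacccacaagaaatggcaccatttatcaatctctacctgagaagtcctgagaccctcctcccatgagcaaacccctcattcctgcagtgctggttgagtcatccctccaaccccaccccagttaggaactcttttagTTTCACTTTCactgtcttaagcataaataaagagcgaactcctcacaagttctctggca
H2-T23 (chr17:36032702-36032951, - strand): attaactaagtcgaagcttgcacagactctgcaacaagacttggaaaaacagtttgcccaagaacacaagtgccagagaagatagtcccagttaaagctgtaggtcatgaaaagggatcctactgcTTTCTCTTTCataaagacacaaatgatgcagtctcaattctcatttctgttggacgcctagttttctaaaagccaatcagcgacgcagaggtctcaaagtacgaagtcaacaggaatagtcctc
H2-Q7 (chr17:35438905-35439154, + strand): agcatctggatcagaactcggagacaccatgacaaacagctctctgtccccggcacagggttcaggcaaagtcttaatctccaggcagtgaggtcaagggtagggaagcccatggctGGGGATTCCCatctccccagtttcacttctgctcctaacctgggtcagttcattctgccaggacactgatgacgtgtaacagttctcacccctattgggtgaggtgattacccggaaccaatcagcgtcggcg
Nfkbia (chr12:55492648-55492897, - strand): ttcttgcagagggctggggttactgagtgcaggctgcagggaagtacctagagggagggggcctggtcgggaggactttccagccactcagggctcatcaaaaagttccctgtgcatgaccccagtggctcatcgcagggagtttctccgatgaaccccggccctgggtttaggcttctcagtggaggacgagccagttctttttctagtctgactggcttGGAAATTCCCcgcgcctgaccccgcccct
Nfkbie (chr17:45555450-45555699, + strand): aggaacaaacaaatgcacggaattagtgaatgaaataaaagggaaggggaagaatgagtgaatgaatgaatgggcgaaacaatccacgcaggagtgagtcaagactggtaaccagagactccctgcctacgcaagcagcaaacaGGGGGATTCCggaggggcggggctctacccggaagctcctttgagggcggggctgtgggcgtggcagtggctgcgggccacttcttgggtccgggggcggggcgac
Gbp5 and Gbp2 encode guanylate-binding proteins, which attack vacuoles that hold microbes. The Gbp5 window held 2 GAS matches, 1 ISRE match and 1 kB match, and that of Gbp2 1 ISRE match. H2-T23, which encodes a non-classical class I molecule, held 1 ISRE match and the class I gene H2-Q7 1 kB match. Nfkbia and Nfkbie, which encode inhibitors that hold NF-kB in the cytoplasm, held 1 kB match each. A promoter was listed for 593 of the 787 genes that were called at least 2-fold higher. Of these, 10.6% held an ISRE match, 9.78% a GAS match and 9.44% a kB match. Among 293 promoters of genes called at least 2-fold lower the shares were 2.05%, 4.44% and 2.73% in the same order, and among all 8497 tested genes with a promoter they were 2.68%, 5.86% and 4.33%. Within the GTPase list 9 of 10 promoters held an ISRE match and 6 of 10 a GAS match. Within the NF-kB list 7 of 17 held a kB match and 0 an ISRE match. A match describes the sequence and does not show binding.

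In all, 58.9% of the tested genes were called, 29.5% higher and 29.4% lower, and 7.07% were called at least 2-fold higher and 3.61% at least 2-fold lower. Without replicate 3 the shares called higher and lower were 27.4% and 27.9%. With each library rescaled to the same total, the median log2 fold change of all genes was -0.12, against 0.00 as deposited. The share of calls that were higher was then 35.4%, and 38.8% with quantile normalization, against 50% as deposited. Counts for gene groups below are read against these shares. Counts with equal totals are given for groups whose share of higher calls moved with that scaling by over 10 percentage points, and for some others.

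The genes of the LPS receptor complex were not called, and the larger changes lay in adaptors and kinases. Of 24 receptor and adaptor genes, 9 were called higher and 8 lower, or 7 and 11 with equal totals. Tlr4 had 701, 712 and 333 normalized reads in the LPS+IFNg libraries, against 522 to 597 (median 567) in the untreated libraries. Cd14 had 576, 593 and 566 normalized reads in the LPS+IFNg libraries, against 496 to 594 (median 535) in the untreated libraries. The 2 groups overlapped for both genes, for Tlr4 with replicates 1 and 2 above and replicate 3 below all untreated libraries. Neither was called, nor was Ly96, the MD-2 gene (0.07), although Tlr4 was called higher without replicate 3 (log2 fold change 0.32). The adaptor gene Ticam2, which links TLR4 to TRIF, had 332, 307 and 444 normalized reads in the LPS+IFNg libraries, against 28 to 69.8 (median 61.1) in the untreated libraries. Its groups did not overlap, with a log2 fold change of 2.78 (SE 0.24) and an adjusted p of 8.1e-09. Irak2, a kinase gene of the MyD88 branch, rose by 2.21, and Irak3, whose product restrains that branch, by 2.16. The kinase genes Ikbke and Tbk1, which act on IRF3, rose by 2.13 and 1.11. Irak4 and Tirap, also of the MyD88 branch, fell by 0.54 and 0.65. Of the interferon receptors, Ifnar2 (1.20) and Ifngr2 (0.62) rose, Ifnar1 had a log2 fold change of -0.02 and was not called, and Ifngr1 was called lower at -0.24, a call lost without LPS+IFNg replicate 3 (-0.13), untreated replicate 1 (-0.19) or untreated replicate 5 (-0.23).

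**Figure D1:**
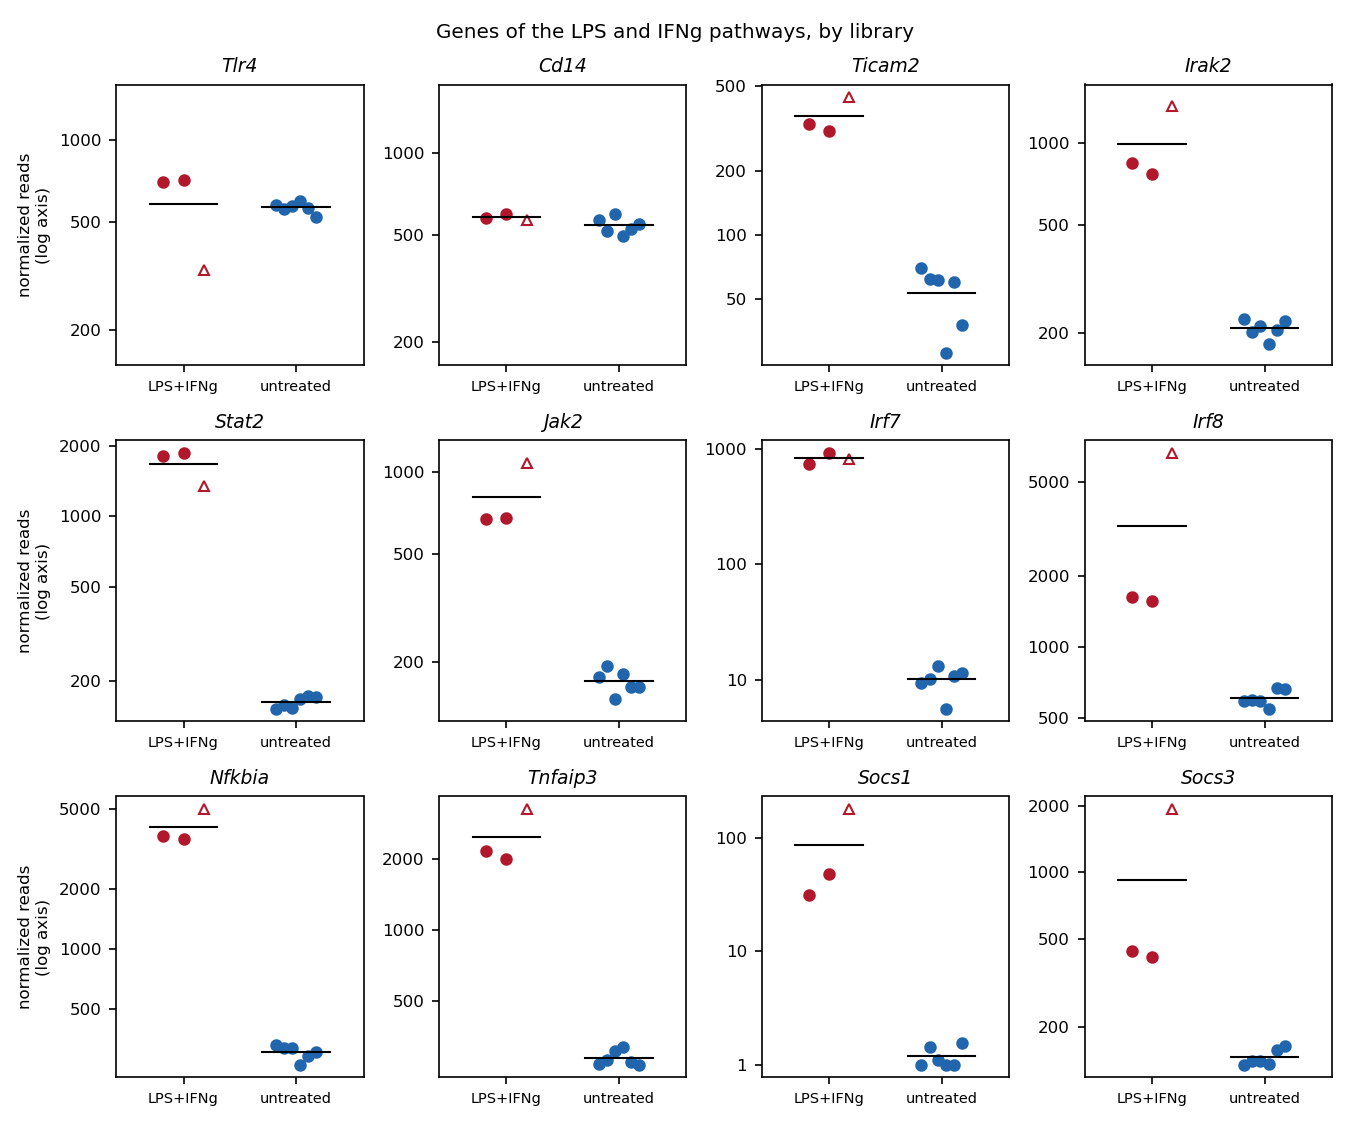
Normalized reads per library (log axis) of 12 genes of the LPS and IFNg pathways; each point is a library, LPS+IFNg (n = 3) left of untreated (n = 6), the open triangle is LPS+IFNg replicate 3 and bars are group means. The groups overlap for Tlr4 and Cd14 and are apart for the other 10 genes.

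Of 19 genes for Janus kinases, STAT factors and interferon regulatory factors, 14 rose and 3 fell, with a median log2 fold change of 0.99. Stat2, a member of the ISGF3 complex, had 1798, 1855 and 1350.3 normalized reads in the LPS+IFNg libraries, against 153 to 172 (median 163) in the untreated libraries, a log2 fold change of 3.34 (SE 0.09). Irf9, of the same complex, rose by 3.18. Jak2 had 672, 678 and 1082 normalized reads in the LPS+IFNg libraries, against 146 to 193 (median 168) in the untreated libraries, whereas Jak1, the other kinase of the IFNg receptor, rose by 0.44. All 3 LPS+IFNg libraries were above every untreated library for Stat2 and Jak2. Irf7, which drives type I interferon genes, had 743, 918 and 824 normalized reads in the LPS+IFNg libraries, against 5.6 to 13.2 (median 10.4) in the untreated libraries. Irf8, a factor of the myeloid lineage, had 1616, 1566 and 6585 normalized reads in the LPS+IFNg libraries, against 546 to 669 (median 592) in the untreated libraries. Both were separate between the groups, with log2 fold changes of 6.26 and 2.07 (1.39 without replicate 3). Batf2, which encodes a partner of IRF1, had 396, 385 and 1418 normalized reads in the LPS+IFNg libraries and held 1 recovered read in the 6 untreated libraries together. Values under 1 were listed as 1 and counted as 0 reads here, which can hide up to 2 reads in untreated replicate 6 and 1 in each of LPS+IFNg replicates 1 and 2. The log2 fold change of Batf2 was 8.22 (7.60 without replicate 3). The depth-adjusted ratio of reads for Batf2 was 3960.0 with a 95% counting interval of 711 to 157000.0, or 2340.0 (418 to 92300.0) without replicate 3. Irf3 and Stat5b, with log2 fold changes of -0.08 and 0.11, were not called, and Irf4 (-0.55) and Stat5a (-0.34) fell.

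NF-kB genes rose on both sides of the pathway, its subunits and its inhibitors. Of 22 tested, 18 rose and 1 fell, with a median log2 fold change of 1.39. Nfkbia had 3672, 3534 and 4981 normalized reads in the LPS+IFNg libraries, against 263 to 330.1 (median 313) in the untreated libraries. Tnfaip3, which encodes the ubiquitin-editing inhibitor A20, had 2178, 2009.9 and 3263 normalized reads in the LPS+IFNg libraries, against 269 to 319 (median 279.5) in the untreated libraries. The groups were apart for both, and their log2 fold changes were 3.72 and 3.07. The subunit genes rose by less: Relb (2.15), Nfkb2 (1.87), Nfkb1 (1.49), Rela (1.20) and Rel (1.11). Traf1, an adaptor of TNF receptors, had 96.1, 107 and 159 normalized reads in the LPS+IFNg libraries, against 1 to 3.31 (median 1.44) in the untreated libraries. The kinase genes that phosphorylate the inhibitors moved little, with Chuk at 0.24, a call lost without replicate 1 (0.17), and Ikbkb at -0.01, not called. Nfkbid was called lower at -0.50, a call lost without replicate 3 (-0.30), as was that of Ikbkg (0.21, and 0.13 without it).

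Of 30 feedback inhibitors, 15 rose and 6 fell (17 and 6 without replicate 3, 13 and 8 with equal totals). Members of the same family moved in opposite directions. Socs1, whose product blocks JAK2 and JAK1, had 31.8, 48.1 and 181 normalized reads in the LPS+IFNg libraries, against 1 to 1.56 (median 1.05) in the untreated libraries. Socs3 had 441, 416 and 1928 normalized reads in the LPS+IFNg libraries, against 136 to 164 (median 141) in the untreated libraries. The groups did not overlap for Socs1 or Socs3, which rose by 4.93 (4.21 without replicate 3) and 2.27 (1.55 without replicate 3), whereas Socs6 fell by 0.70 and Socs5 at -0.15 was not called. Usp18, which encodes a protease that removes ISG15 and blunts type I interferon signalling, rose by 2.94. Among genes for RNA-binding proteins that shorten the life of cytokine messages, Zc3h12c rose by 3.06, Zc3h12a by 2.32 and Zfp36 by 1.37, and Zfp36l1 fell by 0.82. Among MAP kinase phosphatases, Dusp16 rose by 0.92 and Dusp1 by 0.67, and Dusp3 (-0.84), Dusp2 (-0.78) and Dusp7 (-0.64) fell.

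Among the functional lists, the interferon-inducible GTPases, genes for defence inside cells, had the largest median rise. The 16 interferon-inducible GTPases tested were all called higher. Their median log2 fold change was 8.24, or 7.71 without replicate 3. Gbp4 and Gbp6 had 0 recovered reads in the 6 untreated libraries, so their folds are lower bounds set at 3 reads over that group: Gbp4 was at least 605-fold higher (fitted log2 fold change 6.88), or at least 255-fold (6.01) without replicate 3, and Gbp6 at least 4120.0-fold higher, and the list median with both at their bound was 9.42. Igtp had 2022, 1945 and 3149 normalized reads in the LPS+IFNg libraries, against 26.4 to 47.6 (median 35.8) in the untreated libraries. Irgm1, whose product guards host membranes, had 3034, 2782 and 3240.4 normalized reads in the LPS+IFNg libraries, against 113 to 168 (median 127) in the untreated libraries. Both were well separated, and the smallest rise of the list was that of Gvin1, at 3.89. Guanylate-binding and Tgtp genes have near-identical copies, so the division of reads among them is uncertain. Of 45 antiviral genes 44 rose and Ifitm2 (0.07) was not called, with a median log2 fold change of 3.74. Zbp1, a sensor of Z-form nucleic acid, had 249, 275 and 474 normalized reads in the LPS+IFNg libraries, against 1 in every untreated library. Lgals3bp, which encodes a secreted glycoprotein, had 218, 218 and 309 normalized reads in the LPS+IFNg libraries, against 1 to 2.88 (median 1.33) in the untreated libraries. Samhd1, which degrades nucleotides, had 5070.5, 5196 and 9679 normalized reads in the LPS+IFNg libraries, against 1936 to 2156 (median 2014) in the untreated libraries. Zbp1 was at least 633-fold higher, and the groups did not overlap for these 3 genes. Of 8 genes of ISG15 and ubiquitin-like conjugation 6 rose and 0 fell, or 6 and 2 with equal totals. The rises included the activating enzyme gene Uba7 (2.84), the conjugating Ube2l6 (3.07) and the ligase Herc6 (3.81), while the related enzyme genes Uba6 (-0.08) and Ube2z (-0.06) were not called. In the TRIM family of ubiquitin ligases, 12 of 35 rose and 9 fell, or 12 and 6 without replicate 3 and 10 and 12 with equal totals. The rises included Trim12c (3.97), Trim21 (2.51), the antibody receptor of the cytosol, and Trim14 (1.27), and the falls Trim16 (-1.59) and Trim62 (-1.23).

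**Figure D2:**
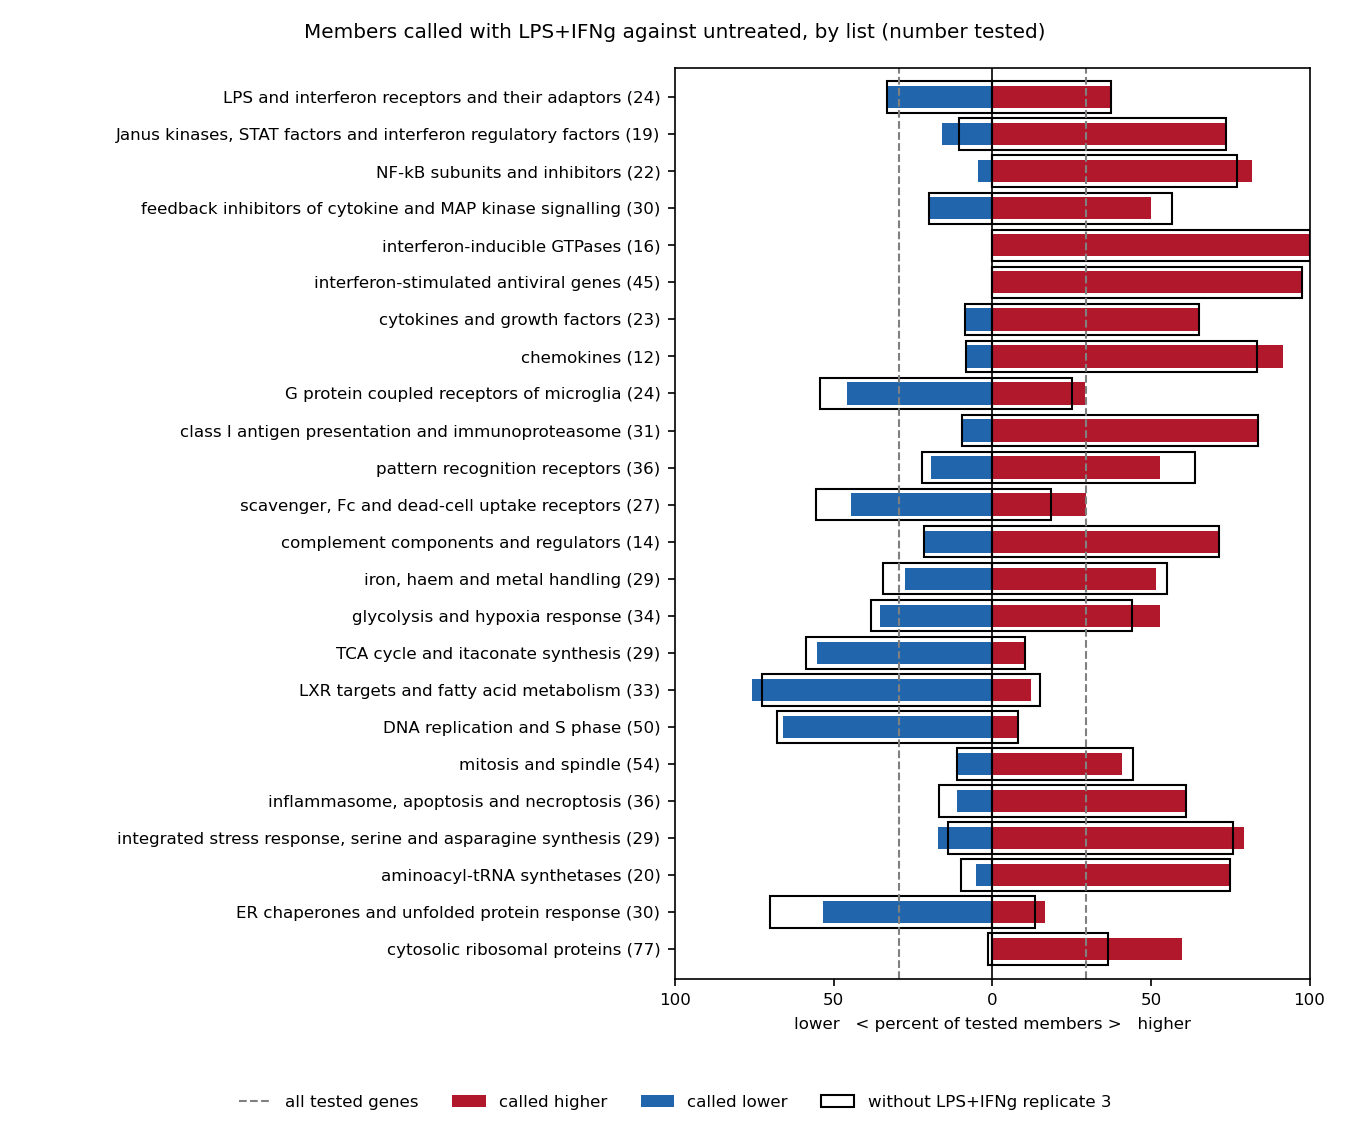
Share of tested members (x axis, percent) called higher (right) and called lower (left) with LPS+IFNg for 24 fixed gene lists, filled with all libraries and outlined without LPS+IFNg replicate 3; dashed lines mark the shares over all 11138 genes, 29.5% and 29.4%. The interferon-inducible GTPases fill the right side and the antiviral genes nearly so, and the LXR and S phase lists have the longest filled bars to the left.

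The RNA of the inducible nitric oxide synthase and of the enzyme that makes its cofactor rose. Nos2 had 3560.3, 3309 and 10321 normalized reads in the LPS+IFNg libraries, against 1 to 9.43 (median 4.17) in the untreated libraries, and its log2 fold change was 9.98 (SE 0.49). Gch1, which makes the cofactor tetrahydrobiopterin, had 338, 371 and 265 normalized reads in the LPS+IFNg libraries, against 86.9 to 130.5 (median 98) in the untreated libraries. Gchfr, whose product inhibits that enzyme, had 16.3, 24.9 and 9.03 normalized reads in the LPS+IFNg libraries, against 35.6 to 53.2 (median 44) in the untreated libraries. These 2 genes moved in opposite directions, by 1.66 and -1.41, with no overlap between the groups. The arginine carrier gene Slc7a2 rose by 1.21 (0.61 without replicate 3). Ass1, which regenerates arginine from citrulline, had 104, 138 and 172 normalized reads in the LPS+IFNg libraries, against 5.66 to 64 (median 57.5) in the untreated libraries, a log2 fold change of 1.88. Its call was lost without any 1 of the LPS+IFNg replicates, which gave 2.07, 1.86 and 1.71, and without untreated replicate 1 or 5 (1.39 and 1.80). Arg1, the arginase that competes for arginine, was near the floor in both groups, with 1 recovered read in LPS+IFNg and 4 in untreated libraries. The polyamine genes Srm (-0.76) and Odc1 (-0.28) fell and Sms (0.53) rose. In all 9 of the 22 genes of this list rose and 6 fell (7 and 5 without replicate 3, 6 and 6 with equal totals).

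In NAD and tryptophan metabolism, Nampt, which encodes the enzyme that salvages nicotinamide, had 7164, 6674 and 9721 normalized reads in the LPS+IFNg libraries, against 2018 to 2284 (median 2147) in the untreated libraries. Bst1, an enzyme gene that consumes NAD, had 54.2, 40.4 and 251 normalized reads in the LPS+IFNg libraries, against 1 to 7.55 (median 4.98) in the untreated libraries. Kmo, of the kynurenine branch, had 2.32, 1 and 2.26 normalized reads in the LPS+IFNg libraries, against 9.71 to 27.3 (median 22.9) in the untreated libraries. The groups were apart for all 3 genes, with log2 fold changes of 1.86, 4.01 (3.22 without replicate 3) and -2.85. The call of Ido2 (0.91) was lost without replicate 3 (0.54), and Ido1 did not pass the filter on low values. The 2 cyclooxygenase genes moved apart. Ptgs2, the inducible form, had 288, 242 and 1505 normalized reads in the LPS+IFNg libraries, against 26.4 to 49.6 (median 43) in the untreated libraries. Ptgs1, the constitutive form, had 8.52, 7.74 and 5.64 normalized reads in the LPS+IFNg libraries, against 37.7 to 79.7 (median 59.2) in the untreated libraries. No LPS+IFNg library overlapped an untreated one for either, and the log2 fold changes were 3.52 (SE 0.38) (2.68 without replicate 3) and -2.85 (SE 0.20). Alox5ap, needed for leukotriene synthesis, fell by 0.51.

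Of 23 cytokine and growth factor genes 15 rose and 2 fell. Il27, a subunit gene of interleukin 27, had 33.3, 33.5 and 88.1 normalized reads in the LPS+IFNg libraries, against 1 in every untreated library. Il15 had 268, 229 and 265 normalized reads in the LPS+IFNg libraries, against 28.3 to 39.9 (median 33.3) in the untreated libraries. The groups were apart for both, and Il27 was at least 95.4-fold higher. Tnfsf13b, which encodes the B cell factor BAFF, had 87.6, 96.3 and 150.2 normalized reads in the LPS+IFNg libraries, against 1 to 7.54 (median 3.41) in the untreated libraries. Tnfsf13, which encodes the related factor APRIL, had 28.7, 37 and 13.6 normalized reads in the LPS+IFNg libraries, against 90.6 to 104 (median 99.9) in the untreated libraries. These 2 related genes lay on opposite sides, at 4.55 and -1.97. Genes that antagonise cytokines rose as well: Il18bp, which binds interleukin 18, by 3.35, and Il1rn, the interleukin 1 receptor antagonist, by 1.79, which was 2.38 without replicate 2 and still called at 0.63 without replicate 3. Il18 rose by 1.71 and Csf1 by 1.90. Igf1, a growth factor of microglia, fell by 2.27. Tgfb1 (0.09), Osm (-0.02) and Il23a (0.86) were not called.

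Of 12 chemokine genes 11 rose and 1, Pf4 (-0.48), fell. Ccl2, which draws monocytes, had 1199, 1186 and 2773 normalized reads in the LPS+IFNg libraries, against 43 to 75.7 (median 51.2) in the untreated libraries. Ccl4 had 1229, 1221 and 3072 normalized reads in the LPS+IFNg libraries, against 71.7 to 98.1 (median 76.9) in the untreated libraries. Both were apart between the groups. Cxcl9, a ligand of CXCR3, a chemokine receptor of T cells, had 149.5, 103 and 7679.8 normalized reads in the LPS+IFNg libraries, against 1 to 1.89 (median 1) in the untreated libraries. The replicate 3 value was far above the other two, and the log2 fold change of the gene was 7.86. Without replicate 1, 2 or 3 it was 8.72, 8.98 or 5.88. By recovered reads, of which the untreated libraries held 1 for Cxcl9 and 3 for Cxcl2, the ratios were 12700.0 (95% counting interval 2280.0 to 503000.0) for Cxcl9 and 309 (105 to 1500.0) for Cxcl2. The ratio for Cxcl9 was 762 (136 to 30200.0) without replicate 3, 20200.0 without replicate 1 and 19200.0 without replicate 2. Of 24 G protein coupled receptor genes, 7 rose and 11 fell (6 and 13 without replicate 3, 5 and 13 with equal totals). Ccrl2, which presents the chemoattractant chemerin, had 428, 405 and 515 normalized reads in the LPS+IFNg libraries, against 2.21 to 6.47 (median 5.71) in the untreated libraries. Hcar2, the receptor of hydroxybutyrate and niacin, had 1103, 1029 and 2914 normalized reads in the LPS+IFNg libraries, against 154 to 174 (median 164) in the untreated libraries. Ptafr, the receptor of platelet-activating factor, had 54.2, 43.8 and 136 normalized reads in the LPS+IFNg libraries, against 2.16 to 11.2 (median 7.83) in the untreated libraries. These 3 rose with no overlap. Among the genes that fell, Cxcr4, the receptor of CXCL12, had 127, 111 and 172 normalized reads in the LPS+IFNg libraries, against 290.5 to 398 (median 344) in the untreated libraries. Lpar6, a lysophosphatidic acid receptor, had 21.7, 26.6 and 24.8 normalized reads in the LPS+IFNg libraries, against 70.0 to 111 (median 94.4) in the untreated libraries. Gpr183, the receptor of oxysterols, had 0 recovered reads in LPS+IFNg and was at least 14-fold lower, or 8.57-fold to 10.3-fold without any 1 of the 3 replicates. The complement receptor gene C3ar1 fell by 1.01, and Ccr1 fell by 2.31.

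Of 31 genes of class I presentation and the immunoproteasome 26 rose and 3 fell. The inducible proteasome subunits rose more than those they replace: Psmb9, Psmb10 and Psmb8 rose by 4.04, 2.79 and 2.13, and Psmb6, Psmb7 and Psmb5 by 0.46, 0.46 and 0.21. The activator genes followed the same split, with Psme1 (2.36) and Psme2 (2.27) higher and Psme3 (-0.37) lower. Tap1, a subunit of the peptide transporter, had 5184, 5691 and 7683 normalized reads in the LPS+IFNg libraries, against 269 to 330.1 (median 318) in the untreated libraries. Tapbpl, a peptide editor, had 503, 568 and 504 normalized reads in the LPS+IFNg libraries, against 53 to 66 (median 60.0) in the untreated libraries. The groups were separate for both. The chaperone gene Calr fell by 0.36. Nlrc5, the activator of class I genes, rose by 1.96. Of 9 class II genes 6 rose and 0 fell (6 and 1 with equal totals). Among these, Ctss, the cathepsin that trims the invariant chain, had 8125, 7931 and 10788 normalized reads in the LPS+IFNg libraries, against 2573 to 2981 (median 2682) in the untreated libraries, and H2-DMb1 rose by 1.09, whereas the promoter factor genes Rfxank and Rfxap (-0.06 and -0.29) were not called. Of 18 co-stimulatory and checkpoint genes 11 rose and 5 fell. Icam1, an adhesion partner of T cells, had 7630.5, 7086 and 21949.8 normalized reads in the LPS+IFNg libraries, against 551 to 634 (median 563) in the untreated libraries. Cd47, a signal against uptake, had 808, 822 and 1016 normalized reads in the LPS+IFNg libraries, against 227 to 263 (median 234) in the untreated libraries. Its receptor gene Sirpa had 11002, 11239.5 and 9726 normalized reads in the LPS+IFNg libraries, against 15029.5 to 16562 (median 15821) in the untreated libraries. Ligand and receptor moved in opposite directions, by 1.87 and -0.57. The gene of the checkpoint molecule VISTA, listed as 4632428N05Rik, fell by 1.76, and Cd80 rose by 1.49. The call of Pdcd1lg2 (1.34) was lost without replicate 3 (1.12).

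Pattern recognition receptor genes differed in direction also within a family. Of 36 tested 19 rose and 7 fell, or 23 and 8 without replicate 3. Among the rises were Ifi203 (8.87) and Mndal (7.32, 6.66 without replicate 3), of a DNA-sensing family, and Clec4e (6.62), a C-type lectin receptor gene. Ifi203 and Mndal had 1 recovered read each in the untreated libraries, with ratios of reads of 6210.0 (95% counting interval 1110.0 to 245000.0) and 2280.0 (409 to 90200.0), or 3940.0 (705 to 156000.0) and 1290.0 (230.0 to 50900.0) without replicate 3. Both genes have near-identical copies, so the division of reads between them and their copies is uncertain, while Aim2, another DNA sensor of the family, was not called (0.05). Nod2, a sensor of bacterial peptidoglycan, had 472, 458 and 414 normalized reads in the LPS+IFNg libraries, against 35.8 to 66.2 (median 46.8) in the untreated libraries, and Nod1 rose by 2.73. Tlr2 had 2614, 2655 and 2128 normalized reads in the LPS+IFNg libraries, against 475 to 572 (median 532) in the untreated libraries, and Tlr3 rose by 2.84. The groups did not overlap for Nod2 or Tlr2. Tlr13, a sensor of bacterial ribosomal RNA, had 643, 666 and 124 normalized reads in the LPS+IFNg libraries, against 1066 to 1280.3 (median 1241) in the untreated libraries, a log2 fold change of -1.68, or -0.88 without replicate 3. Tlr5, the flagellin receptor, fell by 2.49, and Tlr8 fell by 1.32, with 2 recovered reads in LPS+IFNg and a ratio of reads of 0.143 (95% counting interval 0.0164 to 0.574). Without replicate 1 Tlr8 had 0 reads in LPS+IFNg and was at least 2.86-fold lower, and without replicate 2 the ratio was 0.22 (0.0252 to 0.881). Cd180, whose product restrains TLR4, fell by 0.81. Of 27 scavenger, Fc and dead-cell uptake genes 8 rose and 12 fell, 5 and 15 without replicate 3, and 6 and 14 with equal totals. Of the activating Fc receptor genes, Fcgr4 rose by 1.66 (1.03 without replicate 3) and Fcgr1 by 1.35, while Fcgr3 was not called (-0.10) and was called lower without replicate 3 (-0.45). Gas6, which bridges dead cells to their receptors, had 837, 871 and 560.0 normalized reads in the LPS+IFNg libraries, against 2253 to 2492 (median 2424) in the untreated libraries. Cd36, a lipid scavenger, had 169.7, 204 and 332 normalized reads in the LPS+IFNg libraries, against 656 to 739.7 (median 683) in the untreated libraries. Both fell without overlap. Mertk, the receptor of GAS6, was not called (0.11). Fcgr2b was called at 0.24, Scarb2 at 0.21 and Cd300lf at 0.47, calls that were lost without replicate 3 (0.13, 0.13 and 0.21).

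Of 14 complement genes 10 rose and 3 fell. The classical pathway genes C1s1 and C1ra had log2 fold changes of 7.29 and 3.90, and Cfb, of the alternative pathway, rose by 8.33. C1qb had 154, 175 and 724 normalized reads in the LPS+IFNg libraries, against 1 to 1.1 (median 1) in the untreated libraries, a log2 fold change of 7.06 (6.35 without replicate 3). The untreated libraries held 2 recovered reads of C1qb in all, and the ratio of reads was 934 with a 95% counting interval of 258 to 7720.0, or 491 (135 to 4070.0) without replicate 3. Cfp, which encodes properdin, fell by 0.58. Of 8 NADPH oxidase genes 5 rose and 1 fell (5 and 2 with equal totals), and the membrane subunit gene Cybb had 32685, 30675 and 33978 normalized reads in the LPS+IFNg libraries, against 3966 to 4674 (median 4278) in the untreated libraries. The groups were far apart for Cybb.

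Iron and metal genes moved in both directions, as did all tested genes, of which 29.5% rose and 29.4% fell. Of 29 tested, 15 rose and 8 fell (14 and 11 with equal totals). Lcn2, which encodes a protein that captures bacterial iron carriers, had 379, 319.8 and 229 normalized reads in the LPS+IFNg libraries, against 1 in every untreated library. Slc11a2, the DMT1 iron carrier, had 3061, 2849 and 4811 normalized reads in the LPS+IFNg libraries, against 788 to 877 (median 830.3) in the untreated libraries, and Slc31a2, a copper transporter, rose by 2.35. The LPS+IFNg libraries were above every untreated library for Lcn2, which was at least 635-fold higher, and for Slc11a2. The exporter gene Slc40a1 (-0.13) and ferritin light chain Ftl1 (-0.11) were not called with all libraries and were lower without replicate 3 (-0.50 and -0.19), and the ferritin heavy chain gene Fth1 rose by 0.84. The transferrin receptor gene Tfrc fell by 0.35. Among 36 antioxidant genes 16 rose and 12 fell, or 19 and 12 without replicate 3 and 14 and 13 with equal totals. Sod2, the mitochondrial superoxide dismutase, had 3331, 3122 and 4743 normalized reads in the LPS+IFNg libraries, against 749 to 813 (median 781) in the untreated libraries, and Gclm, the regulatory subunit of glutathione synthesis, rose by 1.19, while the catalytic subunit gene Gclc fell by 0.79. Mgst3, a glutathione transferase, had 160.4, 174 and 118 normalized reads in the LPS+IFNg libraries, against 535 to 639 (median 596) in the untreated libraries. Sod2 and Mgst3 lay on opposite sides without overlap, at 2.23 and -1.97.

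More TCA cycle genes fell than rose. Of 29 genes of the cycle and of itaconate synthesis 16 fell and 3 rose. Irg1, which diverts aconitate to itaconate, had 7432, 7024 and 5414 normalized reads in the LPS+IFNg libraries, against 28 to 52.8 (median 37.1) in the untreated libraries, a log2 fold change of 7.37 (SE 0.16). Idh1, the cytosolic isocitrate dehydrogenase, had 884, 933 and 475 normalized reads in the LPS+IFNg libraries, against 1357 to 1558 (median 1443) in the untreated libraries, and the mitochondrial forms fell as well, with Idh3a (-0.58) and Idh2 (-0.56). Pcx, which feeds pyruvate into the cycle, rose by 0.87. No groups overlapped for Irg1 or Idh1. Citrate synthase Cs (0.06) was not called. Of 73 respiratory chain genes 25 fell and 6 rose, with 45 and 2 at equal totals, and the median log2 fold change was -0.08. Of 34 glycolysis and hypoxia genes 18 rose and 12 fell, or 15 and 14 with equal totals and 15 and 13 without replicate 3, and the median log2 fold change was 0.19, or -0.05 with quantile normalization. Hk3, a hexokinase, had 9176, 9523 and 13849 normalized reads in the LPS+IFNg libraries, against 3014 to 3417 (median 3256) in the untreated libraries. Slc2a6, of the glucose carrier family, had 3741, 3977 and 3578 normalized reads in the LPS+IFNg libraries, against 757 to 856 (median 826) in the untreated libraries. Both rose without overlap. Hif1a and Epas1, which encode 2 related hypoxia factors, moved in opposite directions, by 0.81 and -1.81. Pfkm fell by 0.89, and the oxygen sensor gene Egln1 fell by 0.86. Pfkp and Hilpda, called at 0.29 and 0.54, were not called without replicate 3 (0.06 and 0.21).

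Lipid genes mostly fell. Of 33 LXR target and fatty acid genes 25 fell and 4 rose, and the median log2 fold change was -0.48. Fasn, fatty acid synthase, had 3817, 4286 and 2037 normalized reads in the LPS+IFNg libraries, against 9583 to 10329 (median 9971) in the untreated libraries. Srebf1, its regulator, had 1279, 1518 and 1089.5 normalized reads in the LPS+IFNg libraries, against 2199.5 to 2809.8 (median 2559.9) in the untreated libraries. The groups did not overlap, and the log2 fold changes were -1.62 and -0.98. The long-chain acyl-CoA synthetase genes Acsl1 (0.99) and Acsl5 (0.87) rose and Acsl3 (-0.48) fell. Plin2, a coat protein of lipid droplets, fell by 0.90, and Acadm, of fatty acid oxidation, fell by 0.97. Of 28 sterol genes 15 fell and 5 rose. The entry enzyme gene Hmgcs1 (-0.85) fell, and Npc2, which moves cholesterol out of lysosomes, rose by 1.03. Of 194 solute carrier genes 54 rose and 73 fell, beside 29.5% and 29.4% of all tested genes. With equal totals 47 rose and 91 fell, beside 2424 and 4416 of all 11138 tested genes. Slc7a11, the cystine carrier, rose by 1.86 and the zinc carrier Slc39a4 by 3.27. Slc37a2, a sugar phosphate carrier, had 384, 351 and 494 normalized reads in the LPS+IFNg libraries, against 1773 to 2024 (median 1918) in the untreated libraries. Slc36a2, an amino acid carrier, had 80.6, 76.5 and 49.7 normalized reads in the LPS+IFNg libraries, against 317 to 363 (median 351) in the untreated libraries. Both were lower in all 3 LPS+IFNg libraries than in any untreated library.

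Genes of DNA replication and of mitosis did not move together. Of 50 genes of DNA replication and S phase 33 fell and 4 rose, and the median log2 fold change was -0.35. Of 54 genes of mitosis 22 rose and 6 fell, with a median of 0.17. With equal totals the counts were 40 lower and 3 higher for S phase and 16 higher and 14 lower for mitosis. Ccne2, a cyclin of S phase entry, had 113, 64.5 and 47.4 normalized reads in the LPS+IFNg libraries, against 279 to 412 (median 349) in the untreated libraries. Cdc6, which loads the replicative helicase, had 65.1, 71.3 and 86.9 normalized reads in the LPS+IFNg libraries, against 180.1 to 224 (median 209) in the untreated libraries. The helicase genes Mcm5 (-0.82) and Mcm2 (-0.76) fell, as did Uhrf1 (-0.98), which maintains DNA methylation. The groups did not overlap for Ccne2 or Cdc6. On the other side, Cenpe, a kinetochore motor, had 1572, 1448 and 1368 normalized reads in the LPS+IFNg libraries, against 794 to 899 (median 865) in the untreated libraries, and Cdc20, which activates the anaphase complex, rose by 0.55. The groups were apart for Cenpe. The proliferation marker Mki67 had 4205, 3885 and 4203 normalized reads in the LPS+IFNg libraries, against 3809 to 4057 (median 3953) in the untreated libraries. Its groups overlapped and it was not called (0.05), nor was Ccna2 (0.01), and Cdk1 fell by 0.32. Among regulators of arrest, Gadd45a had 288, 305 and 539.7 normalized reads in the LPS+IFNg libraries, against 41.5 to 66.4 (median 46.8) in the untreated libraries, and Mdm2 rose by 1.23 and Cdkn1a by 0.35. Sesn1, another target of p53, had 105, 97.1 and 112 normalized reads in the LPS+IFNg libraries, against 388 to 465 (median 422) in the untreated libraries. Gadd45a and Sesn1 were apart between the groups in opposite directions. Myc rose by 2.34, and its antagonist Mxd1 by 2.42.

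**Figure D3:**
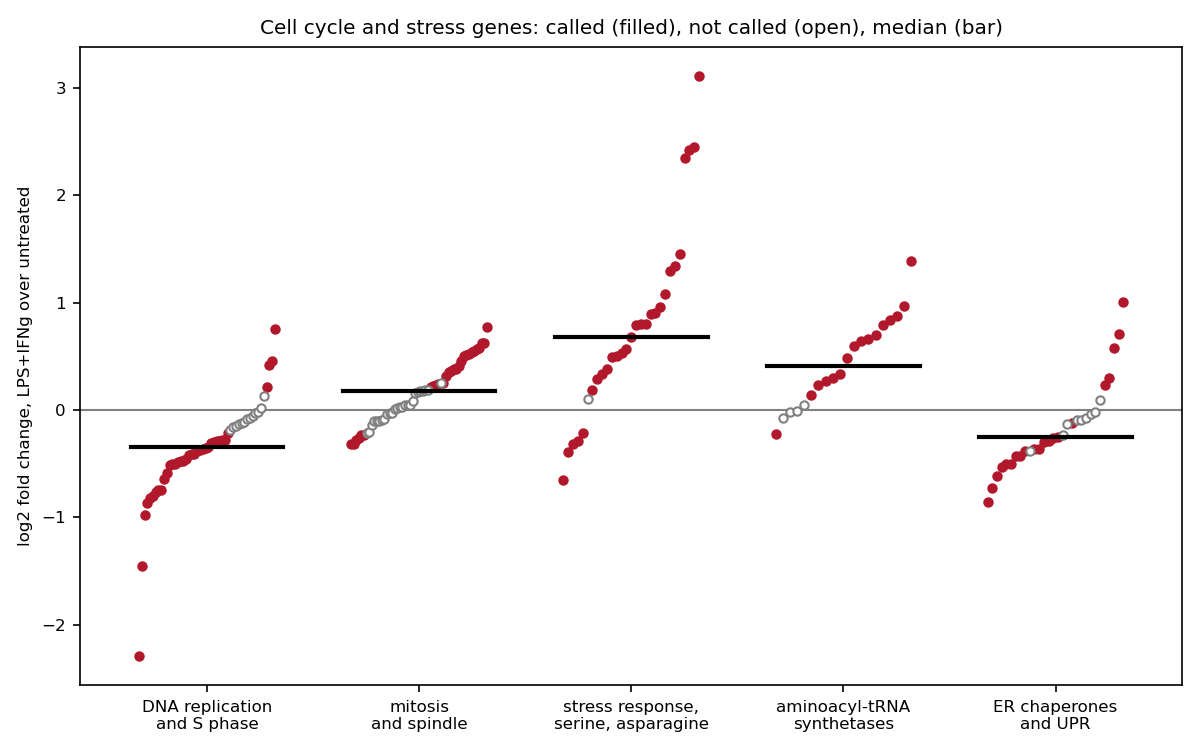
Log2 fold change of LPS+IFNg over untreated (y axis) for each tested member of 5 lists; filled points are called genes, open points are not, black bars are list medians and the grey line marks 0. S phase genes lie mostly below 0 (median -0.35) and mitosis genes around and above it (0.17), and stress response and aminoacyl-tRNA synthetase genes lie mostly above 0 where ER chaperone genes lie mostly below.

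More genes of the integrated stress response rose than fell, and the reverse held for chaperones of the endoplasmic reticulum. Of 29 genes of the stress response and of serine and asparagine synthesis 23 rose and 5 fell, or 20 and 5 with equal totals. Their median log2 fold change was 0.68. Ddit3, the CHOP factor, had 994, 999.8 and 1812 normalized reads in the LPS+IFNg libraries, against 216 to 250.2 (median 241) in the untreated libraries. Trib3, an inhibitor of ATF4, had 918, 938 and 1839 normalized reads in the LPS+IFNg libraries, against 106 to 183 (median 129) in the untreated libraries. Asns, asparagine synthetase, had 1888, 1872 and 1897 normalized reads in the LPS+IFNg libraries, against 707 to 824 (median 732) in the untreated libraries. The groups were separate for these 3 genes. Atf4 itself rose by 0.90. Of 20 aminoacyl-tRNA synthetase genes 15 rose and 1, Hars (-0.22), fell, or 13 and 4 with equal totals. Wars, the tryptophan enzyme, which is also known as an interferon-induced gene, rose by 1.39 and Cars by 0.97. Of 30 chaperone and unfolded protein response genes 16 fell and 5 rose, or 21 and 4 without replicate 3 and 21 and 2 with equal totals. Hspa5, the chaperone BiP, had 6897, 6819.9 and 4797 normalized reads in the LPS+IFNg libraries, against 10706 to 11580.5 (median 10905) in the untreated libraries, with no overlap, and Xbp1 fell by 0.53, while Ern1, the sensor IRE1, rose by 1.01. Of 77 cytosolic ribosomal protein genes 46 were called higher and 0 lower, at a median log2 fold change of 0.18. Without replicate 3 the ribosomal counts were 28 and 1, and with equal totals 13 and 2. Among 77 mitochondrial ribosomal protein genes 16 rose and 17 fell, with 7 and 28 at equal totals.

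Of 36 genes of inflammasomes and cell death 22 rose and 4 fell (22 and 6 without replicate 3, 20 and 8 with equal totals). Both promoters and inhibitors of death were among the rises. Fas, a death receptor, had 110.0, 108 and 282 normalized reads in LPS+IFNg, and 3 recovered reads in the untreated libraries in all, a ratio of reads of 309 with a 95% counting interval of 105 to 1500.0. Casp4, which encodes caspase 11, the receptor of cytosolic LPS, had 1024, 907 and 1316 normalized reads in the LPS+IFNg libraries, against 94.9 to 124 (median 109) in the untreated libraries. Its substrate gene Gsdmd had 793, 884 and 854 normalized reads in the LPS+IFNg libraries, against 229 to 296 (median 265) in the untreated libraries. Mlkl, the effector of necroptosis, rose by 2.02, whereas Ripk3, the kinase that activates it, was not called (-0.18). The inhibitor genes Birc3 (2.75) and Cflar (2.02) rose. Casp4 and Gsdmd did not overlap between the groups. Bcl2 rose by 1.05, and Bmf, which opposes BCL2, fell by 0.75.

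Lysosomal genes moved in both directions, as did all tested genes, of which 29.5% rose and 29.4% fell (27.4% and 27.9% without replicate 3). Of 48 tested 20 rose and 15 fell, or 18 and 17 without replicate 3 and 15 and 20 with equal totals. Ctsz rose by 0.83 and Ctsc, which activates serine proteases, by 0.66, while Ctsk, a collagen-degrading cathepsin, had 28216, 27656 and 15442 normalized reads in the LPS+IFNg libraries, against 39197 to 44391 (median 41479) in the untreated libraries and Laptm5 fell by 0.99. Ctsk was lower without overlap, at -0.86. The call of Psap (0.24) was lost without replicate 3 (0.04). Of 26 autophagy genes 8 rose and 6 fell, or 8 and 11 with equal totals, and these counts are not read as a trait of the list. Sqstm1, the receptor p62, had 14374, 13707 and 15912 normalized reads in the LPS+IFNg libraries, against 4112 to 4442 (median 4169) in the untreated libraries and Optn rose by 1.28, whereas the LC3 genes Map1lc3a (-0.81) and Map1lc3b (-0.23) fell. Among 16 genes of metalloproteases, the urokinase system and their inhibitors 8 fell and 5 rose. Mmp12, macrophage elastase, had 10.1, 8.6 and 9.03 normalized reads in the LPS+IFNg libraries, against 77.6 to 96.4 (median 86.5) in the untreated libraries. Mmp8 had 1 normalized read in every LPS+IFNg library, against 13.2 to 28 (median 20.6) in the untreated libraries. Both fell without overlap, Mmp8 by a factor of at least 23.3, or 14.3 to 17.1 without any 1 of the 3 replicates. Adam17, which releases TNF from the membrane, rose by 0.94 and Adamts4 by 2.39. Of 16 serpins 9 rose and 5 fell (7 and 6 with equal totals). Serpinb9, an inhibitor of granzyme B, had 681, 584 and 1507 normalized reads in the LPS+IFNg libraries, against 75.7 to 104 (median 101) in the untreated libraries. Serpinb1a, an inhibitor of neutrophil proteases, had 14.7, 12 and 88.1 normalized reads in the LPS+IFNg libraries, against 164 to 243 (median 196) in the untreated libraries. Serpinb9 and Serpinb1a moved in opposite directions without overlap, by 3.11 and -2.91 (-3.79 without replicate 3).

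Of 47 myeloid, AP-1, EGR and KLF transcription factor genes 19 rose and 11 fell. Cebpa, a factor of the myeloid lineage, had 188, 206 and 107 normalized reads in the LPS+IFNg libraries, against 330.1 to 394 (median 358) in the untreated libraries. Spi1, the PU.1 factor, had 1067, 1210.4 and 952 normalized reads in the LPS+IFNg libraries, against 1387 to 1561 (median 1531) in the untreated libraries. For both, every LPS+IFNg library was below every untreated one, with log2 fold changes of -1.16 and -0.49. Cebpb rose by 1.19, so 2 members of the C/EBP family moved apart. Id3, an inhibitor of helix-loop-helix factors, had 130.2, 138 and 181 normalized reads in the LPS+IFNg libraries, against 1 to 10.8 (median 5.71) in the untreated libraries, and Ets2 rose by 1.95. Fos fell by 1.64, Junb rose by 1.44 and Jun (-0.16) was not called. Egr3 fell by 2.08, and Nr4a1 fell by 1.18. Of 18 homeostatic microglia genes 9 fell and Mef2a rose (0.23, and 0.21 without replicate 2, which is not called), against 10 lower and 0 higher with equal totals. Tgfbr1 fell by 0.52. Of 23 genes known from disease-associated microglia, 12 fell and 6 rose, or 14 and 6 without replicate 3. Spp1, osteopontin, had 22418, 21125 and 38279 normalized reads in the LPS+IFNg libraries, against 47216 to 54503 (median 52502) in the untreated libraries. Cd9 had 1932, 1863 and 1710.5 normalized reads in the LPS+IFNg libraries, against 3885 to 4272 (median 4125) in the untreated libraries. Both fell without overlap, and Gpnmb (0.12) was not called. Of 17 genes of alternative activation 5 rose and 3 fell (5 and 4 with equal totals). The receptor gene Il4ra rose by 1.46, and the lectin gene Mgl2 fell by 2.23.

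The 10 deepest falls among genes with an untreated mean of at least 50 and no overlap were Atp2b4, Ankrd37, Cytip, Hspb7, Abca9, Rgs2, Srpk3, Hdac9, Klhl30 and Cmbl, at log2 fold changes of -4.42 to -3.29. Hdac9, a histone deacetylase gene, had 6.2, 10.3 and 9.03 normalized reads in the LPS+IFNg libraries, against 74 to 137 (median 99.6) in the untreated libraries. Srpk3, a kinase gene known from muscle, had 4.65, 8.6 and 2.26 normalized reads in the LPS+IFNg libraries, against 50.4 to 74.8 (median 61.8) in the untreated libraries. Replicate 3 was the lowest LPS+IFNg library for Srpk3 and not for Hdac9. Rgs2, which shortens G protein signals, had 86, 97.1 and 123 normalized reads in the LPS+IFNg libraries, against 1126 to 1328 (median 1165) in the untreated libraries. The SE for Rgs2, which draws on the spread of all 15 libraries, was 0.08. Another member of its family, Rgs18, had 10.1, 12 and 4.52 normalized reads in the LPS+IFNg libraries, against 54.1 to 84.1 (median 63.9) in the untreated libraries, whereas Rgs1 and Rgs3 rose by 0.99 and 1.04. Without replicate 3 the fold changes of Atp2b4 and Abca9 were -3.86 and -3.25. Of the 10 largest rises, Tgtp1, Tgtp2 and Gbp3 had replicate 3 within 0.37 of the other two on the log2 scale. Gbp3 had 5649, 5419 and 7173 normalized reads in the LPS+IFNg libraries, against 3.77 to 8.63 (median 6.11) in the untreated libraries. Serpina3f had 4461, 4013 and 11941 normalized reads in the LPS+IFNg libraries, against 1 to 5.66 (median 1.09) in the untreated libraries. For Serpina3f replicate 3 was more than 2-fold above the other two libraries, and without it the log2 fold change was 10.58, against 11.08 with it.

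Replicate 3 was at least 2-fold higher than the log2 mean of replicates 1 and 2 for 212 genes and at least 2-fold lower for 187. Of the 212, 124 were called higher and 24 lower with all libraries, and 108 and 50 without replicate 3. Of the 187, 17 were called higher and 81 lower with all libraries, and 35 and 50 without replicate 3. Both fits use libraries by which these genes were chosen, so the counts are a description only. The 5 genes furthest above were Cxcl9 and Il1rn, described above, and Ly6c1, Ston2 and Apol6. Ly6c1, a surface protein gene, had 42.6, 31.8 and 453 normalized reads in the LPS+IFNg libraries, against 1 in every untreated library. Apol6 had 34.9, 23.2 and 240.5 normalized reads in the LPS+IFNg libraries, against 1 to 1.44 (median 1) in the untreated libraries. Ly6c1 was at least 294-fold higher by reads (74.7-fold without replicate 3), and Apol6, with 1 recovered read in the untreated libraries, had a ratio of reads of 510.0 with a 95% counting interval of 90.8 to 20200.0, or 175 (30.5 to 7020.0) without replicate 3. Both were called higher, at fitted log2 fold changes of 5.44 and 4.85. They were still called without replicate 3, at 4.24 and 3.83, and without replicate 2, at 6.14 and 5.49. Ston2, an endocytic adaptor gene, had 7.75, 14.6 and 138 normalized reads in the LPS+IFNg libraries, against 14.3 to 25.2 (median 19.4) in the untreated libraries, with replicate 1 below every untreated library, replicate 2 among them and replicate 3 above all. It was not called (0.39) and was called lower without replicate 3 (-0.80). The 5 furthest below were Scand1, Tlr13, Hp, Erdr1 and Rpl34. Hp, which encodes haptoglobin, had 621, 759 and 152 normalized reads in the LPS+IFNg libraries, against 314 to 387 (median 347) in the untreated libraries, with replicates 1 and 2 above and replicate 3 below all untreated libraries. It was not called (0.25) and was called higher without replicate 3 (0.98). Scand1 had 139.5, 328 and 39.5 normalized reads in the LPS+IFNg libraries, against 37.5 to 162 (median 74.6) in the untreated libraries. Its groups overlapped and it was not called (0.74). With and without replicate 3, 2876 genes were called higher in both and 2842 lower in both, and 0 genes were called in opposite directions. At the 2-fold size, 673 were higher and 320 lower in both.

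**Figure D4:**
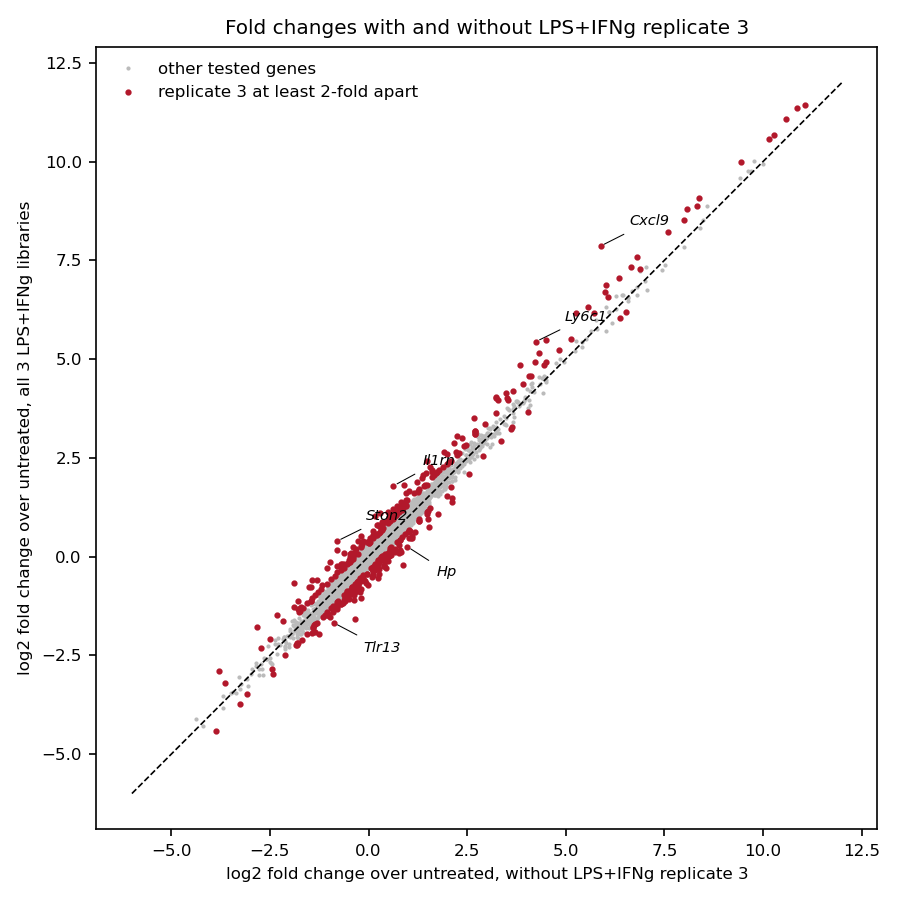
Log2 fold change over untreated without LPS+IFNg replicate 3 (x axis) against that with all 3 libraries (y axis) for the 11138 tested genes; dark points are the 399 genes that differ at least 2-fold between replicate 3 and the mean of the other two. Points above the dashed diagonal have a larger value with replicate 3, as Cxcl9 (7.86 against 5.88), and points below it a smaller one, as Tlr13 (-1.68 against -0.88).

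The direct contrasts with the other stimuli called 57.7% of genes for LPS+IFNg against IL4 and 62.6% against TGFb, and both use the same LPS+IFNg libraries. Values here are means ± SD of normalized reads with n = 3 for each stimulus, and differences are on the log2 scale with limma's adjusted p within the contrast. Ptgs1 had 7.3 ± 1.49 in LPS+IFNg, 172 ± 7.05 in IL4 and 173 ± 14.5 in TGFb, differences of -4.39 (adjusted p 1.0e-11) and -4.41 (6.7e-12). Rgs2 had 102 ± 19 in LPS+IFNg, 1204 ± 2.63 in IL4 and 1608 ± 38.9 in TGFb, and differed by -3.56 (3.6e-16) and -3.98 (9.4e-17). Ptgs1 and Rgs2 were thus lower in LPS+IFNg than with either other stimulus. Atp2b4, a calcium pump gene, had 6.98 ± 4.15 in LPS+IFNg, 88.2 ± 8.08 in IL4 and 942 ± 16.4 in TGFb. Hspb7, a small heat shock protein gene, had 7.25 ± 2.46 in LPS+IFNg, 92 ± 13.4 in IL4 and 1041 ± 125 in TGFb. For both genes the difference from TGFb (-7.07 and -7.01) was further from 0 than that from IL4 (-3.66 and -3.52), and all 4 differences passed the test. Cytip, a regulator of adhesion, had 33.4 ± 11.3 in LPS+IFNg, 1204 ± 106 in IL4 and 172 ± 11.5 in TGFb, with differences of -5.17 and -2.38. Ccne2 had 75 ± 34.1 in LPS+IFNg, 318 ± 6.17 in IL4 and 277 ± 18.8 in TGFb, with differences of -2.16 and -1.96. Cytip and Ccne2 passed the test against both. Among genes that rose, Ptgs2 had 679 ± 716 in LPS+IFNg, 27.1 ± 4.59 in IL4 and 34.5 ± 5.45 in TGFb, and differed by 4.09 and 3.75. Socs1 had 86.8 ± 81.6 in LPS+IFNg, 9.49 ± 2.4 in IL4 and 1.32 ± 0.55 in TGFb, and differed by 2.69 and 4.87. Both genes passed the test against both stimuli, and without replicate 3 the differences were 3.25 and 2.91 for Ptgs2 and 1.96 and 4.14 for Socs1, all called. Cish, an inhibitor of cytokine receptors, had 68.3 ± 66 in LPS+IFNg, 88.6 ± 1.22 in IL4 and 6.89 ± 1.39 in TGFb. It was higher than in TGFb by 2.74 (1.4e-04) and did not pass the test against IL4 (-0.78, adjusted p 0.204). Without replicate 3 it was still higher than in TGFb (adjusted p 4.4e-04) and was lower than in IL4 (-1.52, adjusted p 0.00483). Il4ra, the IL4 receptor gene, had 282 ± 115 in LPS+IFNg, 84.9 ± 5.29 in IL4 and 420.4 ± 22.9 in TGFb. It was higher than in IL4 (1.65, adjusted p 5.5e-07) and lower than in TGFb (-0.64, adjusted p 0.00667).

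**Figure D5:**
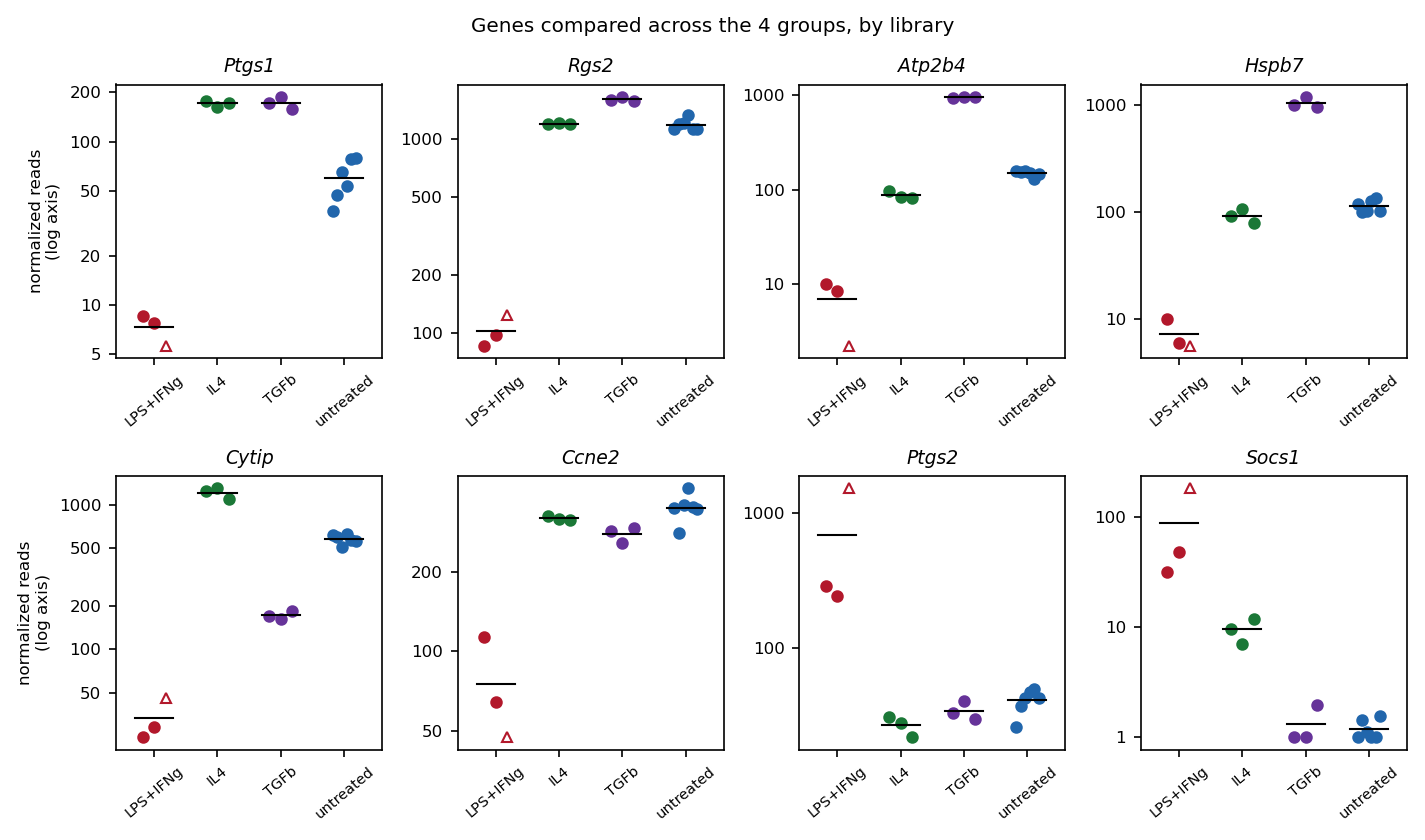
Normalized reads per library (log axis) of 8 genes in ESdM given LPS+IFNg, IL4 or TGFb (n = 3 each) and in untreated cells (n = 6), from left to right in each panel; bars are group means and the open triangle is LPS+IFNg replicate 3. Rgs2 and Ptgs1 are lowest in LPS+IFNg, and Atp2b4 and Hspb7 are highest in TGFb.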

How the data were processed

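RNA-seq was done on 15 libraries of ESdM, and 1 deposited table gave a value per gene and library. Per the labels' protocols, RNA was taken with TRIZOL and libraries were made with a TruSeq kit. Per the submitters' processing notes, TopHat2 2.0.3, Partek 6.6, R 3.0.2 and DESeq2 were used with mm10. The table's signal values, made by the authors, are normalized read counts: dividing each value by the worth of 1 read gave whole reads for 100% of values above the floor, within a tolerance of 0.01 reads, and values under 1 were listed as 1. That floor stands for 0 reads in 8 libraries, up to 2 in untreated replicate 6 and up to 1 in the other 6 libraries, and was counted as 0 reads. The annotation, the counting rule and the use of strand are not given in the sources used here. Reads of overlapping, antisense or nearly identical genes may therefore be shared out wrongly. No column was left out of the fit.

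Of 11201 genes, the 11138 that reached 10 in 3 or more libraries entered the test. Values on the scale log2(value + 1) were fitted with limma 3.58.1 (R 4.3.3, moderated with a trend, 2-sided), over all 15 libraries in 1 model, with Benjamini-Hochberg adjustment over all tested genes. The fit was also tested on simulated data with known changes. The simulation gave all libraries the same spread per gene and raised untreated levels to at least 10. It therefore cannot show how the fit handles replicate 3 or genes near the floor. Counts were also tested with edgeR 4.0.16 and DESeq2 1.42.0 on the recovered reads. Ratios and lower bounds from few reads used recovered reads over a group divided by depth. For a bound, a group with 0 reads was set at 3 reads over the group, which is a convention and not a 95% limit. The exact 95% upper limits of the ratio were 0.0902 for Gpr183 and 0.0536 for Mmp8. The 95% exact intervals cover counting error only, and reads hidden by the floor of 1 would weaken the bounds further. Depth per library was 2682564 to 18676181 reads. Groups were taken from the labels, and replicate numbers follow accession order and pair nothing. A chi-square of reads found every pair of LPS+IFNg libraries and every pair of untreated libraries to differ by more than counting noise. Pairs of IL4 or TGFb libraries were not tested. Gene lists were matched by symbol, through RefSeq synonyms where needed, and promoters came from RefSeq, GRCm38.p6.

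The comparison, its members and the lists were chosen with earlier results of these data known. Named genes are the 10 largest rises and falls without overlap between groups, the called list members with the largest changes in each direction, other list members whose role or failure to pass belongs to the list's description, and the 5 genes furthest on each side in replicate 3. A few genes that this rule names are not reported here. Alternatives were another pseudocount and filter, other scalings, other fits and weights, a test against a 1.5-fold change, each library left out in turn and the count tests.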

Additional observations from a re-analysis of the deposited data

Results flagged for a closer look

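In 22 of 310 genes named above, 1 of the 6 untreated libraries lay far from the other 5: the gap between the highest or lowest library and its nearest neighbour, as a share of the range of the group, passed Dixon's 95% critical value for 6 samples. Chance alone flags about 1 in 20 groups. Replicates 1 to 6 were the distant library for 6, 3, 4, 5, 3 and 1 genes.

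In 5 genes at or near the floor a lone untreated library held the only reads, so that the share was 1.000. These were Apol6 and Ifi203 (replicate 2, 1.44 normalized reads each), Batf2 (replicate 3, 1.1), and Cxcl9 and Mndal (replicate 1, 1.89 each). Fas was highest in replicate 2 (1.44, share 0.745).

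In 2 genes with higher levels the distant library was the highest. Cars had 775 normalized reads in replicate 1 (share 0.767). Srm had 1274.8 in replicate 6 (0.717).

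In the other genes the distant library was the lowest. In replicate 1 these were Ass1 with 5.66 normalized reads (share 0.630), Psme3 with 1077.0 (0.641) and Ripk3 with 60.4 (0.629). In replicate 3 they were Ccrl2 with 2.21 (0.854), Il18bp with 1.1 (0.865) and Optn with 82.8 (0.667). In replicate 4 they were Il23a with 1 (0.921), Serpinb9 with 75.7 (0.827), Mcm2 with 1246.9 (0.739), Gas6 with 2252.8 (0.660) and Erdr1 with 19.6 (0.634). In replicate 5 they were Trim12c with 10.8 (0.676), Atp2b4 with 129 (0.655) and Dusp2 with 31.3 (0.648). The LPS+IFNg group, with 3 libraries, is too small for this rule.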

How the results depend on the processing

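Counts of called genes stayed within 1.5 times the 3284 higher and 3278 lower genes under all alternatives run except the test against a 1.5-fold change, which called 826 higher and 468 lower. edgeR called 6701 genes and DESeq2 6419, against 6562 by limma. Leaving out 1 library at a time gave 3048 to 3314 higher and 3082 to 3291 lower genes, and 709 to 840 and 364 to 474 at the 2-fold size. Of the 310 named genes, direction and call were kept by 290 without LPS+IFNg replicate 3, by at least 306 without any other single library, by 294 with equal totals, by 296 with quantile normalization and by 292 with array weights, which gave replicate 3 a weight of 0.13. With equal totals 9 of the named genes lost their call and 7 gained one, and with quantile normalization 6 lost and 6 gained one. Not all of these are pointed out, so some calls described above rest on the deposited scaling. Of 96 counts over gene lists, 90 stayed within 1.5 times without replicate 3, 80 with equal totals and 26 in the test against a 1.5-fold change. The fits without replicate 3 by edgeR (6549 called) and with equal totals (6292 called), the contrasts with IL4 and TGFb without it, and the ratios and bounds of reads with an LPS+IFNg library left out, were chosen after seeing the data.

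Some log2 fold changes turned. With quantile normalization Cs was -0.13 and Gpnmb -0.26. With 1 library left out at a time Csf1r ranged from -0.33 to 0.17, Ston2 from -0.80 to 1.19 and Tlr4 from -0.22 to 0.32, with replicate 3 left out at the ends 0.17, -0.80 and 0.32. With array weights Csf1r was 0.15, Mertk -0.40, Ston2 -0.78 and Tlr4 0.30. With edgeR without replicate 3 Csf1r was 0.18, Cx3cr1 -4.31, Mertk -0.40, Ston2 -0.74 and Tlr4 0.34. With equal totals without replicate 3 Gpnmb was -0.13, Mertk -0.43, Pfkp -0.03, Psap -0.04, Ston2 -0.88 and Tlr4 0.24. The cause was not tested. With 300-base promoter windows 13.2% of the genes at least 2-fold higher held an ISRE match, 11.1% a GAS match and 10.1% a kB match, against 3.07%, 6.77% and 4.99% of all tested genes. No paired analysis was possible because replicate numbers follow accession order and pair nothing. Depth limits genes at the floor, where a fold is a bound or a counting interval.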
